A study of Mus musculus with 12 samples.

Results

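The genes described here belong to 3 stress programmes that watch over protein folding: the unfolded protein response of the endoplasmic reticulum (ER), the integrated stress response, and the heat shock response of the cytosol with its mitochondrial counterpart. They were chosen by name, as a list of 37 genes, and each was read by the brightest of its probes. All 37 were on the array, among 13283 named genes tested, and all 37 were well above background on all 12 arrays, so none entered the tests through 1 group alone.

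The cells were macrophages from the abdominal cavity of C57/BL6 mice, kept in medium with 10% fetal bovine serum. KO LPS arrays came from GPR15 knockout macrophages given lipopolysaccharide (LPS, a component of the bacterial outer membrane) at 100 ng/ml, and KO PBS arrays from knockout macrophages given phosphate-buffered saline. WT LPS and WT PBS arrays came from wild-type macrophages under the same stimulations, which lasted 4 h in every group. Each group had 3 arrays, numbered 1 to 3. Gpr15 encodes a G protein-coupled receptor. How the knockout allele was made, how many animals gave each sample and the animals' age and sex are not given in the sources used here, and the labels do not say that the 3 samples of a group came from separate animals or cultures, so the p-values measure the spread between these samples, which may be technical.

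The arrays were of 1 colour, and 48.8 to 57.1% of the 59305 spots that were no controls were well above background on an array. Gpr15 itself was not well above background on any of the 12 arrays, wild type included, so it does not check the genotype labels. Xist was well above background on 0 of 6 KO arrays and 6 of 6 WT arrays, and the Y-linked genes Ddx3y, Kdm5d and Uty on 6 of 6 KO arrays and 0 of 6 WT arrays. The Y-linked Eif2s3y was well above it on 6 KO arrays and 1 WT array. Thus genotype and the sex of the animals cannot be told apart here. The arrays lay on 2 slides: slide 2 held the 3 KO LPS arrays and KO PBS replicate 3, and slide 1 held KO PBS replicates 1 and 2 and all 6 WT arrays. All 8 macrophage markers (Adgre1, Csf1r, Itgam, Cd68, Lyz2, Cd14, Gata6 and Icam2) were well above background on all 12 arrays. Of the other cell types looked for, all 6 B cell markers, all 6 mast cell markers, 6 of 7 T cell markers, 4 of the 6 neutrophil markers on the array and 2 of 5 fibroblast and mesothelial markers were too, while Ltf, Col1a1 and Upk3b were well above it on 0.

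Proteins that enter the ER are folded there by chaperones such as BiP (Hspa5) and by protein disulfide isomerases. When unfolded proteins build up, 3 sensors in the ER membrane respond: Ire1 (Ern1), which splices the mRNA of Xbp1; Atf6, which is cleaved to release a transcription factor; and Perk (Eif2ak3), a kinase that phosphorylates the translation factor eIF2α and so favours translation of Atf4. Other kinases that phosphorylate eIF2α feed the same Atf4 branch, which is then called the integrated stress response and drives genes of amino acid supply. In the cytosol, heat shock factor Hsf1 drives the Hsp70 and Hsp90 chaperones. In macrophages, signalling through Tlr4, the receptor for LPS, is known to engage the Ire1 and Xbp1 branch. The arrays read mRNA only, so neither splicing of Xbp1 nor phosphorylation or cleavage of a sensor was measured.

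Promoter sequence was taken from RefSeq (build GRCm38.p6) for windows of 250 bases before to 50 bases after each annotated start, and 32 of the 37 genes matched a window. Both strands were searched for 4 elements. The ER stress element (CCAAT, any 9 bases, CCACG) lay in 0.119% of all 32851 windows and in those of Calr, Canx, Dnajc3, Hsp90b1, Hspa5 and Pdia6. The second ER stress element (ATTGG, any 1 base, CCACG) lay in 0.0365% of windows and in that of Herpud1. The core of the element bound by Atf4 with C/EBP proteins (TGATG, any 1 base, AA) lay in 3.97% of windows and in those of Asns, Chac1, Herpud1 and Trib3. A heat shock element (GAA, any 2 bases, TTC, any 2 bases, GAA) lay in 0.603% of windows and in those of Hspd1, Hspe1 and Hsph1. The stretches below are shown because their genes are the ones the LPS results turn on. Hspa5, Calr, Hsp90b1 and Dnajc3 carry 1 element and did not move alike. Herpud1, Chac1 and Asns carry the Atf4 core and moved alike, but so did targets of the integrated stress response for which no core was found. Capitals mark the element on either strand, each line runs 5′ to 3′ on the gene's strand, and a match of letters describes the sequence without showing that a factor binds there.
Hspa5, chr2:34772000-34772068, plus strand: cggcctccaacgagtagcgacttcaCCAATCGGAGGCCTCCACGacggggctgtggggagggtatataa
Calr, chr8:84847050-84847118, minus strand: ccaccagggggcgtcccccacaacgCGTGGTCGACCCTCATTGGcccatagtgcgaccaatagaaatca
Hsp90b1, chr10:86705508-86705681, minus strand: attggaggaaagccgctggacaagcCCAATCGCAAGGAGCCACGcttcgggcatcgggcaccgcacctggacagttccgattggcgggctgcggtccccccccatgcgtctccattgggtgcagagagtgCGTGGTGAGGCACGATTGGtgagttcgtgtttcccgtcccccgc
Dnajc3, chr14:118937802-118937870, plus strand: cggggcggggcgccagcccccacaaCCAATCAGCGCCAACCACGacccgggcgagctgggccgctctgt
Herpud1, chr8:94386292-94386412, plus strand: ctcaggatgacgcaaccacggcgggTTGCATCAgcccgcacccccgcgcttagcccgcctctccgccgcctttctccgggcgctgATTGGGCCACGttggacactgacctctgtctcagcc
Chac1, chr2:119351024-119351081, plus strand: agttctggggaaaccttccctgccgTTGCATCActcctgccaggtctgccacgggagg
Asns, chr6:7693210-7693257, minus strand: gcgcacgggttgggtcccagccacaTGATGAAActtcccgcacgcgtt
Hspd1, chr1:55088034-55088101, minus strand: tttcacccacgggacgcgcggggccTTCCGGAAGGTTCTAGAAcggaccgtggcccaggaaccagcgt
Hsp90b1 carries the ER stress element at 2 places. Hspd1 and Hspe1 share 1 stretch between their starts, which run in opposite directions, and the capitals in it hold 2 overlapping matches of the heat shock element, so the stretch is printed once, on the strand of Hspd1.

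LPS moved most of the 37 genes, in both genotypes and in both directions. Targets of the integrated stress response, Hspa5, Herpud1, the constitutive Hsp70 Hspa8, the cytosolic Hsp90 genes and the mitochondrial chaperonins rose, while most ER folding enzymes and the sensor Eif2ak3 fell. In KO macrophages 19 genes were higher and 9 lower after LPS than in PBS, at a Benjamini-Hochberg adjusted p under 0.05 over all 13283 genes, where 35.1% of all genes tested were higher and 32.0% lower. In WT macrophages 21 were higher and 8 lower, where 33.7% of all genes tested were higher and 31.0% lower. LPS moved 67.0% of all genes tested in KO and 64.7% in WT macrophages, so that most genes were called whether or not they belong to these programmes. The median change of the 37 was 0.17 in KO and 0.37 in WT macrophages on the log2 scale, beside 0.04 and 0.03 over all genes tested. The gap between these medians depended on the processing. With slide as a term, which rests on KO PBS replicate 3, they were 0.35 and 0.37, and under quantile normalization 0.09 and 0.17. Levels are log2 signals less the array's own 75th percentile, changes are differences of group means of these levels with the standard error of the limma fit, and levels of different genes cannot be set against each other because each gene has its own probe.

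The KO and WT changes ran close together. Their Pearson r over the 37 genes was 0.97, a correlation across genes, and genes are no independent replicates. The sign was the same for 34 genes, 26 were called in the same direction in both genotypes, and 0 were called in opposite directions. Over all genes tested the sign was the same for 84.7%, 53.2% were called in the same direction in both and 0.61% in opposite directions. The change was the smaller one in KO macrophages for 24 of the 37, and for 50.9% of all genes. B cell markers moved with LPS as well: their summed signal, relative to the 75th percentile, was 53.1 to 54.0 on KO LPS arrays, against 106 to 112 on KO PBS arrays, and 65.4 to 78.3 on WT LPS arrays, against 123 to 159 on WT PBS arrays. The sum of the macrophage markers was 714 to 740 on KO LPS arrays, against 716 to 796 on KO PBS arrays, and 694 to 773 on WT LPS arrays, against 694 to 755 on WT PBS arrays, although single markers moved: of the 8, 2 were higher and 6 lower after LPS in KO, and 1 was higher and 6 lower in WT macrophages. T cell markers summed to 9.61 to 10.9 on KO LPS arrays, against 17.5 to 18.9 on KO PBS arrays, and to 10.4 to 11.5 on WT LPS arrays, against 19.3 to 24.9 on WT PBS arrays. Mast cell markers summed to 74.9 to 76.9 on KO LPS arrays, against 58.9 to 67.4 on KO PBS arrays, and to 86.1 to 106 on WT LPS arrays, against 67.6 to 90.1 on WT PBS arrays. Fewer cells of a type and less RNA per cell cannot be told apart in such samples, and the part of these other cell types in the changes below was not tested.

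**Figure D1:**
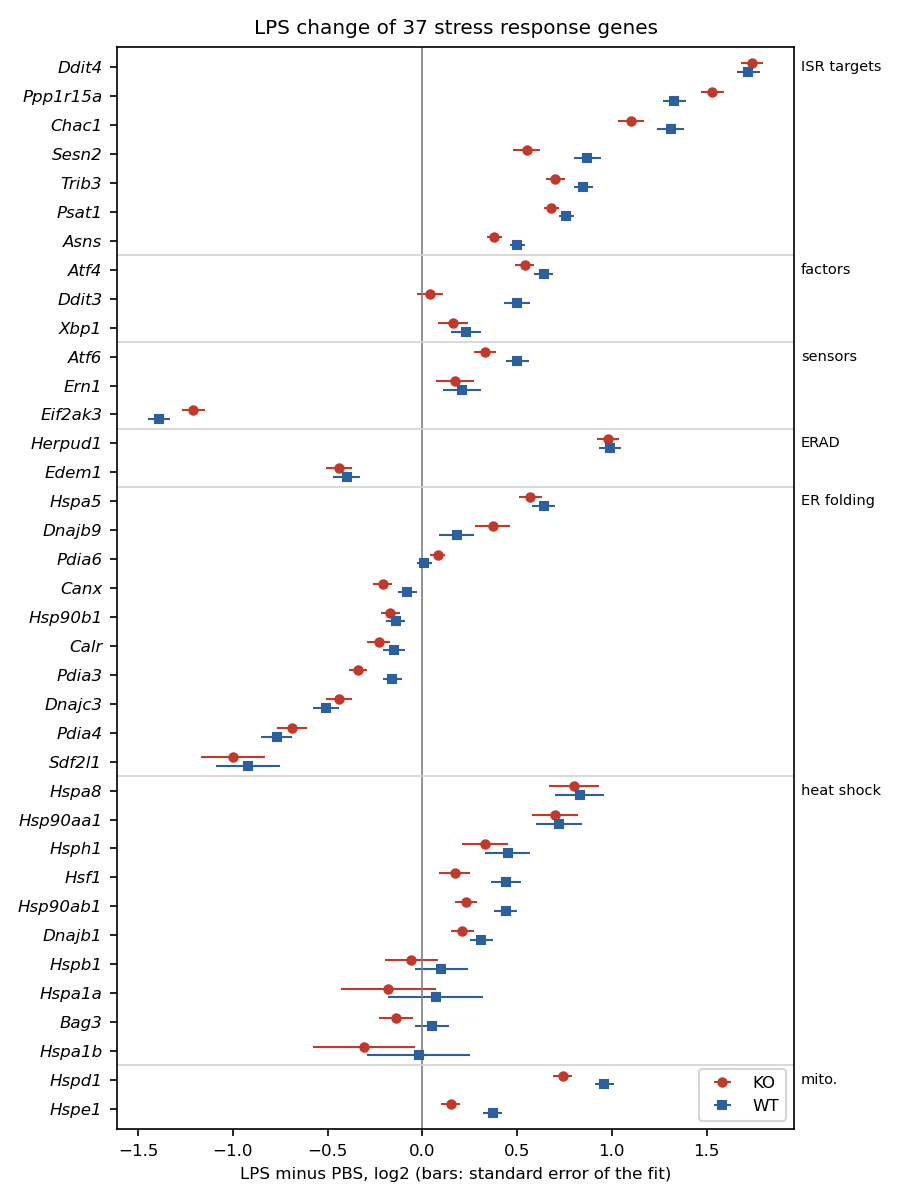
Change of each of the 37 genes after LPS against PBS (x axis, log2 difference of group means of 3 arrays each, bars are the standard error of the limma fit), grouped by role down the page, with KO macrophages as red circles above WT macrophages as blue squares. Ddit4, Ppp1r15a, Chac1 and Herpud1 lie farthest to the right and Eif2ak3, Sdf2l1 and Pdia4 farthest to the left in both genotypes, and Ddit3 shows a KO value of 0.04 beside a WT value of 0.50.

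All 7 targets of the integrated stress response rose after LPS in both genotypes, where 35.1% of all genes tested were higher in KO and 33.7% in WT macrophages. Ddit4 (REDD1), an inhibitor of the growth kinase complex mTORC1, had levels of 5.64, 5.65 and 5.57 on the KO LPS arrays, against 3.88, 3.96 and 3.79 on the KO PBS arrays, and 5.77, 5.80 and 5.76 on the WT LPS arrays, against 4.08, 4.17 and 3.93 on the WT PBS arrays. It was the largest rise among the 37 genes, by 1.74 ± 0.06 (adjusted p = 1.26e-09) in KO and 1.72 ± 0.06 (adjusted p = 9.51e-10) in WT macrophages, or 3.34-fold and 3.29-fold, and every LPS array lay above every PBS array. Ppp1r15a (GADD34) directs a phosphatase to eIF2α and so ends the response. Its levels were 5.54, 5.46 and 5.43 on the KO LPS arrays, against 4.00, 3.99 and 3.86 on the KO PBS arrays, and 5.28, 5.30 and 5.40 on the WT LPS arrays, against 4.06, 4.07 and 3.88 on the WT PBS arrays. The rise was 1.53 ± 0.06 (adjusted p = 2.98e-09) in KO and 1.33 ± 0.06 (adjusted p = 6.02e-09) in WT macrophages, with LPS and PBS arrays fully apart.

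Chac1, an enzyme that degrades glutathione, stood at 5.49, 5.51 and 5.46 on the KO LPS arrays, against 4.40, 4.43 and 4.34 on the KO PBS arrays, and 5.43, 5.41 and 5.70 on the WT LPS arrays, against 4.21, 4.19 and 4.22 on the WT PBS arrays. It rose by 1.1 ± 0.07 (adjusted p = 5.27e-08) in KO and by 1.31 ± 0.07 (adjusted p = 9.69e-09) in WT macrophages, again with no overlap. Sesn2, a leucine sensor that holds back mTORC1, stood at 3.26, 3.35 and 3.21 on the KO LPS arrays, against 2.79, 2.71 and 2.65 on the KO PBS arrays, and 3.47, 3.46 and 3.69 on the WT LPS arrays, against 2.66, 2.64 and 2.70 on the WT PBS arrays. Its rise was 0.55 ± 0.07 (adjusted p = 1.47e-05) in KO and 0.87 ± 0.07 (adjusted p = 2.54e-07) in WT macrophages, and the WT LPS arrays were the highest of the 4 groups. The pseudokinase gene Trib3 rose by 0.70 ± 0.05 in KO and 0.85 ± 0.05 in WT macrophages. Psat1, of serine synthesis, rose by 0.68 ± 0.04 and 0.76 ± 0.04, and the asparagine synthetase gene Asns by 0.38 ± 0.04 and 0.50 ± 0.04, KO macrophages given first. Of the 4 genes with the Atf4 core in their window, Asns, Chac1, Herpud1 and Trib3, all 4 rose in both genotypes. Over all genes tested, 35.1% were higher in KO and 33.7% in WT macrophages. Ddit4, Ppp1r15a, Psat1 and Sesn2, for which no core was found, rose in both as well. Whether the core bears on the rise was not tested.

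The sensors did not move together. Eif2ak3 (Perk) had levels of 0.09, 0.05 and 0.04 on the KO LPS arrays, against 1.30, 1.31 and 1.19 on the KO PBS arrays, and 0.23, 0.23 and 0.24 on the WT LPS arrays, against 1.60, 1.53 and 1.74 on the WT PBS arrays. LPS arrays were well below PBS arrays in both genotypes, and the change was -1.21 ± 0.06 (adjusted p = 1.1e-08) in KO and -1.39 ± 0.06 (adjusted p = 3.07e-09) in WT macrophages, a level 2.31-fold lower in KO and 2.63-fold lower in WT. Atf6 stood at 2.04, 1.96 and 2.04 on the KO LPS arrays, against 1.79, 1.73 and 1.52 on the KO PBS arrays, and 2.32, 2.35 and 2.34 on the WT LPS arrays, against 1.83, 1.87 and 1.81 on the WT PBS arrays. It rose by 0.33 ± 0.06 (adjusted p = 0.000621) in KO and 0.50 ± 0.06 (adjusted p = 2.17e-05) in WT macrophages without overlap. Ern1 (Ire1) had 0.81, 0.85 and 0.64 on the KO LPS arrays, against 0.76, 0.66 and 0.37 on the KO PBS arrays, and 0.79, 0.71 and 0.85 on the WT LPS arrays, against 0.58, 0.66 and 0.48 on the WT PBS arrays. Its KO groups overlapped and its change there was 0.17 ± 0.10 (adjusted p = 0.127). With slide as a term, which sets the KO LPS arrays against KO PBS replicate 3 alone, it was 0.40. In WT macrophages the change was 0.21 ± 0.10 (adjusted p = 0.0758), and 0.21 ± 0.07 (adjusted p = 0.0326) with the replicate number as a block.

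Among the transcription factors, Atf4 rose in both genotypes. It had levels of 8.28, 8.26 and 8.32 on the KO LPS arrays, against 7.77, 7.76 and 7.71 on the KO PBS arrays, and 8.40, 8.49 and 8.40 on the WT LPS arrays, against 7.85, 7.83 and 7.69 on the WT PBS arrays. The rise was 0.54 ± 0.05 (adjusted p = 2.84e-06) in KO and 0.64 ± 0.05 (adjusted p = 5.65e-07) in WT macrophages. Ddit3 (CHOP), a factor downstream of Atf4 linked to cell death under lasting ER stress, had 3.10, 3.12 and 3.19 on the KO LPS arrays, against 3.15, 3.16 and 2.99 on the KO PBS arrays, and 3.41, 3.30 and 3.57 on the WT LPS arrays, against 2.91, 2.90 and 2.97 on the WT PBS arrays. The KO LPS arrays overlapped the KO PBS arrays, whereas every WT LPS array lay above every WT PBS array. The change was 0.04 ± 0.07 (adjusted p = 0.651) in KO macrophages, with a 95% interval of -0.11 to 0.19, and Ddit3 rose by 0.50 ± 0.07 (adjusted p = 4.27e-05) in WT macrophages.

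Xbp1, the factor made from the mRNA that Ire1 splices, stood at 5.41, 5.44 and 5.36 on the KO LPS arrays, against 5.32, 5.33 and 5.09 on the KO PBS arrays, and 5.60, 5.73 and 5.55 on the WT LPS arrays, against 5.46, 5.49 and 5.25 on the WT PBS arrays. LPS arrays lay above PBS arrays in each genotype, by narrow margins. The change was 0.16 ± 0.08 (adjusted p = 0.102) in KO macrophages. With slide as a term, and so against KO PBS replicate 3 alone, it was 0.32. In WT macrophages Xbp1 rose by 0.23 ± 0.08 (adjusted p = 0.0266), a call that ended without WT PBS replicate 3, without WT LPS replicate 2, under normexp background correction (0.21, adjusted p = 0.0507) and under quantile normalization, where the value was -0.05. Whether the probe tells spliced from unspliced Xbp1 was not tested.

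The ER chaperones and folding enzymes mostly fell. Of 10, 2 were higher and 7 lower in KO macrophages after LPS, beside 35.1% and 32.0% of all genes tested. In WT macrophages 1 was higher and 6 lower, beside 33.7% and 31.0%. Hspa5 (BiP), the main Hsp70 of the ER, was the one called higher in both genotypes by its brightest probe, with levels of 6.74, 6.74 and 6.73 on the KO LPS arrays, against 6.17, 6.23 and 6.11 on the KO PBS arrays, and 7.01, 7.09 and 6.92 on the WT LPS arrays, against 6.39, 6.43 and 6.27 on the WT PBS arrays. The rise was 0.57 ± 0.06 (adjusted p = 3.88e-06) in KO and 0.64 ± 0.06 (adjusted p = 1.19e-06) in WT macrophages, and no LPS array reached down to a PBS array of its genotype. Sdf2l1, an ER protein that works with BiP, had 0.41, 0.23 and 0.52 on the KO LPS arrays, against 1.67, 1.23 and 1.24 on the KO PBS arrays, and 0.06, -0.10 and 0.36 on the WT LPS arrays, against 1.00, 0.74 and 1.33 on the WT PBS arrays. Its arrays scattered more than those of most others, and it still fell, with changes of -1.0 ± 0.17 (adjusted p = 0.000238) in KO and -0.92 ± 0.17 (adjusted p = 0.000428) in WT macrophages without overlap.

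Pdia4, a protein disulfide isomerase, had -0.19, -0.25 and -0.15 on the KO LPS arrays, against 0.56, 0.53 and 0.37 on the KO PBS arrays, and 0.13, -0.05 and 0.20 on the WT LPS arrays, against 0.95, 0.80 and 0.85 on the WT PBS arrays. It fell, with changes of -0.69 ± 0.08 (adjusted p = 9.27e-06) in KO and -0.77 ± 0.08 (adjusted p = 3.06e-06) in WT macrophages. Dnajc3 (p58IPK), a co-chaperone of BiP that also inhibits Perk, stood at 0.13, 0.18 and 0.18 on the KO LPS arrays, against 0.59, 0.71 and 0.52 on the KO PBS arrays, and 0.31, 0.34 and 0.14 on the WT LPS arrays, against 0.82, 0.82 and 0.67 on the WT PBS arrays. It fell, with changes of -0.44 ± 0.07 (adjusted p = 0.000174) in KO and -0.51 ± 0.07 (adjusted p = 5.53e-05) in WT macrophages. Pdia4 and Dnajc3 had all LPS arrays below all PBS arrays within each genotype.

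The other 6 moved less. Pdia3 (ERp57) fell in both genotypes, with a change of -0.34 ± 0.05 in KO and -0.16 ± 0.05 in WT macrophages. Calreticulin (Calr) fell as well, with -0.23 ± 0.06 in KO and -0.15 ± 0.06 in WT, and so did Hsp90b1 (Grp94, the Hsp90 of the ER), with -0.17 ± 0.05 in KO and -0.14 ± 0.05 in WT macrophages. In WT macrophages these 3 calls ended without 1 array: Pdia3 without WT LPS replicate 2 or 3, Hsp90b1 without WT PBS replicate 2 or WT LPS replicate 1 or 3, and Calr without WT PBS replicate 1 or 3 or WT LPS replicate 1 or 2. That of Hsp90b1 also ended under normexp (-0.16, adjusted p = 0.051). Calnexin (Canx) fell in KO macrophages, with -0.21 ± 0.05 (adjusted p = 0.00299), beside -0.08 ± 0.05 (adjusted p = 0.199) in WT. With slide as a term, and so against KO PBS replicate 3 alone, the KO changes were -0.17 for Calr, -0.17 for Canx and -0.06 for Hsp90b1, and their calls ended. Dnajb9 (ERdj4), a BiP co-chaperone, rose in KO by 0.37 ± 0.09 (adjusted p = 0.00342), beside 0.18 ± 0.09 (adjusted p = 0.0941) in WT macrophages, where the value with the replicate number as a block was 0.18 ± 0.03 (adjusted p = 0.00393). Its other kept probe gave 0.36 in KO and 0.32 in WT macrophages. With the mean over its probes Dnajb9 was called higher in WT too, with 0.25 (adjusted p = 0.0369). Pdia6 had 0.08 ± 0.04 (adjusted p = 0.129) in KO and 0.01 ± 0.04 (adjusted p = 0.863) in WT macrophages, and -0.27 in WT under quantile normalization. Of the 6 genes with the ER stress element in their window, Hspa5 rose in both genotypes, Calr, Hsp90b1 and Dnajc3 fell in both, Canx fell in KO, and Pdia6 was called in neither.

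ER-associated degradation, which returns misfolded proteins to the cytosol for destruction, was read by 2 genes that moved oppositely. Herpud1, a membrane protein of the degradation complex whose window held both the second ER stress element and the Atf4 core, had 4.76, 4.76 and 4.85 on the KO LPS arrays, against 3.75, 3.75 and 3.94 on the KO PBS arrays, and 4.58, 4.59 and 4.73 on the WT LPS arrays, against 3.63, 3.59 and 3.71 on the WT PBS arrays. It rose by 0.98 ± 0.06 (adjusted p = 9.16e-08) in KO and 0.99 ± 0.06 (adjusted p = 6.4e-08) in WT macrophages, close to 1.97-fold and 1.99-fold. Edem1, which recognises mannose-trimmed glycoproteins, had 1.67, 1.85 and 1.77 on the KO LPS arrays, against 2.17, 2.14 and 2.29 on the KO PBS arrays, and 1.92, 1.96 and 1.75 on the WT LPS arrays, against 2.31, 2.36 and 2.15 on the WT PBS arrays. It fell, with changes of -0.44 ± 0.07 (adjusted p = 0.000271) in KO and -0.40 ± 0.07 (adjusted p = 0.000556) in WT macrophages. For both genes the LPS and PBS arrays of a genotype did not overlap.

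**Figure D2:**
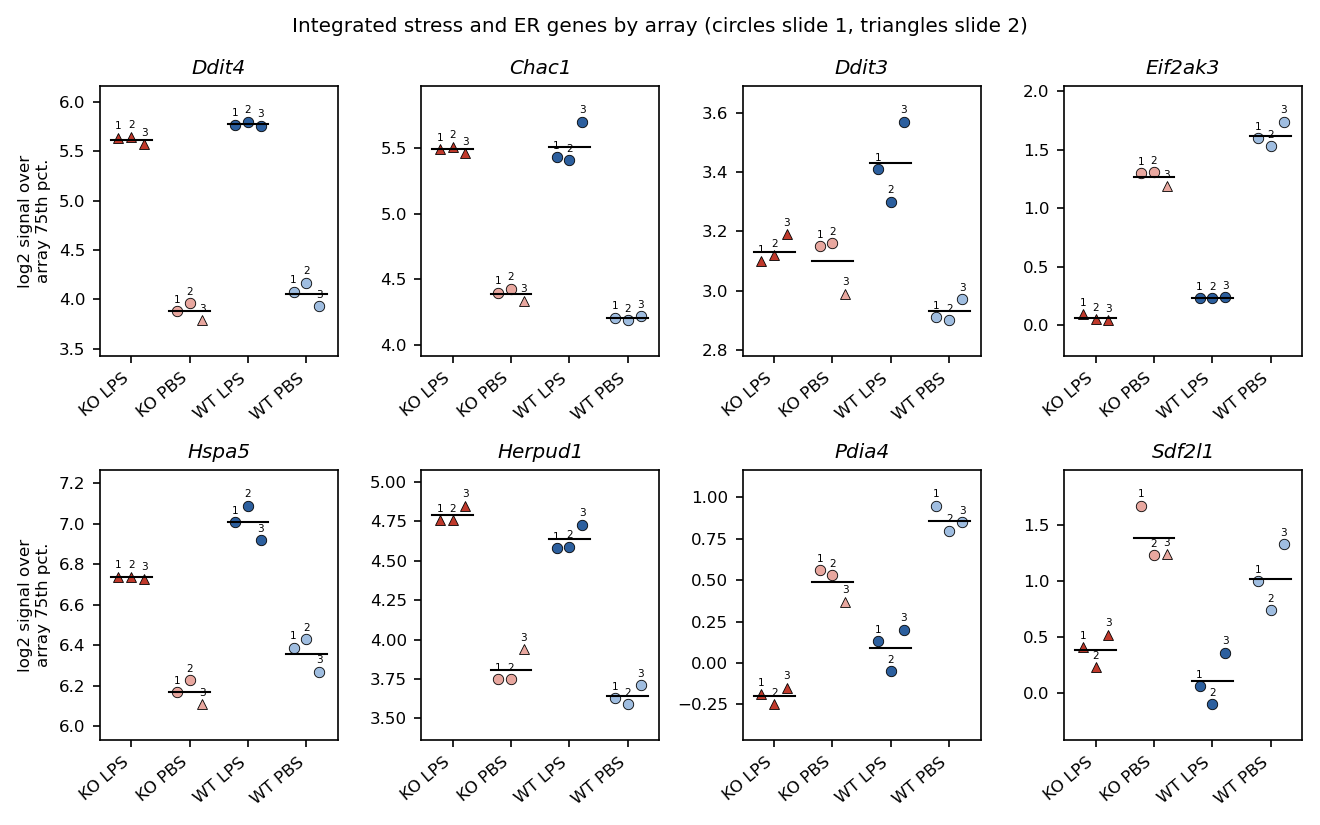
Level of 8 genes on each of the 12 arrays (y axis, log2 signal relative to the array's 75th percentile, with its own range per gene), by group from left to right KO LPS, KO PBS, WT LPS and WT PBS. Each point is an array with its replicate number, circles are arrays of slide 1 and triangles of slide 2, and black lines are group means. Ddit4, Chac1, Hspa5 and Herpud1 stand higher on LPS arrays and Eif2ak3, Pdia4 and Sdf2l1 lower, and for Ddit3 the KO LPS and KO PBS arrays overlap while the WT LPS and WT PBS arrays do not.

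Cytosolic chaperones rose or did not pass the test. Of 10 genes, 5 were higher and 0 lower in KO macrophages, beside 35.1% and 32.0% of all genes tested. In WT macrophages 6 were higher and 0 lower, beside 33.7% and 31.0%. Hspa8 (Hsc70), the constitutive Hsp70, had levels of 5.74, 5.82 and 5.63 on the KO LPS arrays, against 4.97, 5.01 and 4.80 on the KO PBS arrays, and 6.06, 6.17 and 5.82 on the WT LPS arrays, against 5.28, 5.41 and 4.87 on the WT PBS arrays. It rose by 0.80 ± 0.13 (adjusted p = 0.000156) in KO and 0.83 ± 0.13 (adjusted p = 0.000115) in WT macrophages. Hsp90aa1, the inducible cytosolic Hsp90, had 5.79, 5.80 and 5.76 on the KO LPS arrays, against 5.04, 5.05 and 5.14 on the KO PBS arrays, and 6.04, 6.19 and 5.78 on the WT LPS arrays, against 5.39, 5.45 and 4.99 on the WT PBS arrays. Its rise was 0.70 ± 0.12 (adjusted p = 0.000214) in KO and 0.72 ± 0.12 (adjusted p = 0.000163) in WT macrophages. WT replicate 3 was the lowest array of its group for both genes, yet LPS and PBS arrays stayed apart within each genotype.

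The stress-inducible Hsp70 genes, the classic targets of Hsf1, were not called. Hspa1a had 1.24, 1.23 and 1.56 on the KO LPS arrays, against 1.52, 1.29 and 1.77 on the KO PBS arrays, and 1.11, 1.26 and 0.48 on the WT LPS arrays, against 1.08, 1.26 and 0.31 on the WT PBS arrays. The groups overlapped, and the change was -0.18 ± 0.25 (adjusted p = 0.532) in KO and 0.07 ± 0.25 (adjusted p = 0.832) in WT macrophages, with a 95% interval of -0.72 to 0.36 in KO. With the replicate number as a block, which sets each LPS array against the PBS array of its number, the WT change was 0.07 ± 0.05 (adjusted p = 0.277). Hspa1b, its near-identical copy, had -0.29, -0.33 and 0.09 on the KO LPS arrays, against 0.22, -0.10 and 0.28 on the KO PBS arrays, and -0.37, -0.23 and -1.06 on the WT LPS arrays, against -0.27, -0.16 and -1.17 on the WT PBS arrays. Its change was -0.31 ± 0.27 (adjusted p = 0.316) in KO and -0.02 ± 0.27 (adjusted p = 0.948) in WT macrophages, with an interval of -0.90 to 0.27 in KO, and the WT value with the block was -0.02 ± 0.06 (adjusted p = 0.779). Whether the probes tell the copies apart was not tested.

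Of the remaining 6, the constitutive Hsp90ab1 rose by 0.23 ± 0.06 in KO and 0.44 ± 0.06 in WT macrophages, the Hsp110 gene Hsph1 by 0.33 ± 0.12 and 0.45 ± 0.12, and the Hsp40 gene Dnajb1 by 0.21 ± 0.06 and 0.31 ± 0.06, KO first. The KO call of Hsph1 ended without any 1 of KO PBS replicates 1 and 3 and KO LPS replicates 1, 2 and 3, and that of Dnajb1 without KO LPS replicate 2. Normexp ended the KO calls of Hsph1 (0.29, adjusted p = 0.0515) and of the mitochondrial Hspe1 (0.07, adjusted p = 0.312). Under quantile normalization the KO calls of Dnajb1, Hsp90ab1, Hsph1 and Hspe1 and the WT call of Dnajb1 were lost. Hsf1 itself had 0.17 ± 0.08 (adjusted p = 0.0587) in KO macrophages and rose by 0.44 ± 0.08 (adjusted p = 0.000268) in WT macrophages. With slide as a term, and so against KO PBS replicate 3 alone, its KO value was 0.36. The small heat shock protein gene Hspb1 and the co-chaperone gene Bag3 had -0.06 ± 0.14 and -0.14 ± 0.09 in KO and 0.10 ± 0.14 and 0.05 ± 0.09 in WT macrophages and were not called.

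Both mitochondrial chaperonins rose. Hspd1 (Hsp60) had 5.14, 5.14 and 5.09 on the KO LPS arrays, against 4.44, 4.43 and 4.29 on the KO PBS arrays, and 5.40, 5.38 and 5.24 on the WT LPS arrays, against 4.41, 4.39 and 4.35 on the WT PBS arrays. The rise was 0.74 ± 0.05 (adjusted p = 2.78e-07) in KO and 0.96 ± 0.05 (adjusted p = 2.56e-08) in WT macrophages, with no overlap. Hspe1 (Hsp10), its partner from the same shared promoter, had 4.08, 4.08 and 4.04 on the KO LPS arrays, against 3.90, 4.00 and 3.84 on the KO PBS arrays, and 4.14, 4.22 and 4.19 on the WT LPS arrays, against 3.77, 3.79 and 3.87 on the WT PBS arrays. It rose by 0.15 ± 0.05 (adjusted p = 0.0161) in KO, a call that ended without KO LPS replicate 2, and by 0.37 ± 0.05 (adjusted p = 3.26e-05) in WT macrophages. Hspe1 was read by 3 probes, whose KO changes were 0.15, 0.64 and 0.33 and whose WT changes were 0.37, 0.38 and 0.44, the brightest given first.

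**Figure D3:**
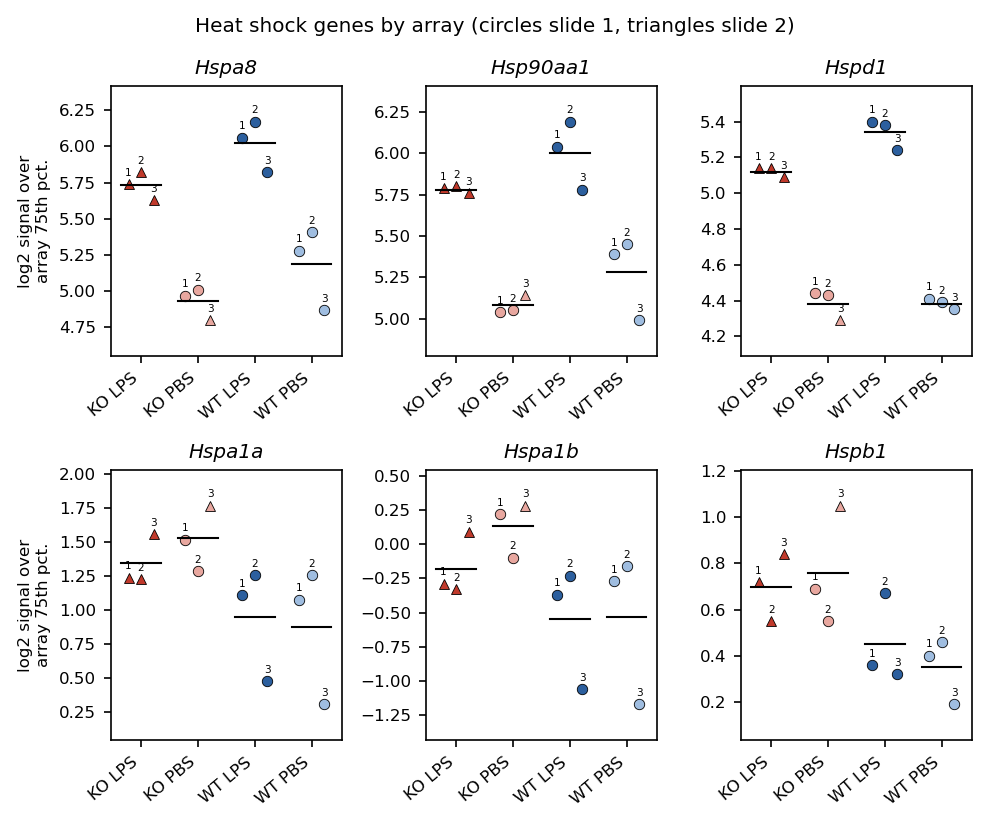
Level of 6 heat shock and chaperonin genes on each of the 12 arrays, drawn as in the plot of ER and integrated stress genes, with KO LPS, KO PBS, WT LPS and WT PBS from left to right. Hspa8, Hsp90aa1 and Hspd1 stand higher on LPS than on PBS arrays in each genotype, while Hspa1a, Hspa1b and Hspb1 spread widely, and WT replicate 3 is the lowest array of both WT groups for Hspa1a, Hspa1b, Hspa8 and Hsp90aa1.

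In the KO comparison, slide and stimulation overlap in part, because all KO LPS arrays and only 1 KO PBS array lay on slide 2. With slide as a term, 22 of the 37 genes were higher and 6 lower, where 27.7% of all genes tested were higher and 25.3% lower. With this term too the KO LPS arrays are set against KO PBS replicate 3 alone, the lone PBS array of slide 2. These counts thus rest on 1 PBS array, with a spread taken from the other arrays. Within slide 2 alone the changes of all 37 genes equalled these to 2 decimals, which the design fixes in advance. The calls of slide 2 alone carry no spread of the PBS group and are not counted. The WT comparison lay wholly on slide 1, where a fit of those arrays alone called 22 genes higher and 7 lower, where 34.5% of all genes tested were higher and 31.1% lower.

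Further genes of the same pathways were counted in the same way. Of 29 further measured genes of the integrated stress response, 18 were higher and 2 lower in KO, beside 35.1% and 32.0% of all genes tested. In WT macrophages 24 were higher and 2 lower, beside 33.7% and 31.0%. The arginine transporter gene Slc7a3 rose by 2.23 ± 0.07 (adjusted p = 4.17e-10) in KO and 2.02 ± 0.07 (adjusted p = 5.7e-10) in WT. Ppp1r15b, the constitutively expressed relative of Ppp1r15a, rose by 0.78 ± 0.05 (adjusted p = 1.5e-07) and 0.88 ± 0.05 (adjusted p = 4.26e-08), and Psph, of serine synthesis, by 0.87 ± 0.06 (adjusted p = 2.96e-07) and 0.64 ± 0.06 (adjusted p = 3.44e-06), KO given first. Eif2ak2 (PKR), an interferon-induced eIF2α kinase, rose by 0.65 ± 0.08 (adjusted p = 2.21e-05) in KO and 1.73 ± 0.08 (adjusted p = 5.64e-09) in WT macrophages.

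Of 29 further heat shock and cytosolic folding genes, 22 were higher and 2 lower in KO, beside 35.1% and 32.0% of all genes tested. In WT macrophages 21 were higher and 3 lower, beside 33.7% and 31.0%. Subunits of the ring-shaped chaperonin TRiC led these: Cct8 rose by 0.71 ± 0.04 (adjusted p = 7.4e-08) in KO and 0.75 ± 0.04 (adjusted p = 3.52e-08) in WT, Cct5 by 0.60 ± 0.06 (adjusted p = 1.81e-06) and 0.74 ± 0.06 (adjusted p = 2.54e-07), Cct6a by 0.77 ± 0.06 (adjusted p = 5.77e-07) and 0.80 ± 0.06 (adjusted p = 3.37e-07), and Tcp1 by 0.58 ± 0.06 (adjusted p = 5.06e-06) and 0.80 ± 0.06 (adjusted p = 2.46e-07), in the same order. Of 30 further genes of ER folding and degradation, 5 were higher and 12 lower in KO, and 4 were higher and 11 lower in WT macrophages, beside the same shares. The oxidase gene Ero1b fell, with -1.12 ± 0.08 (adjusted p = 2.58e-07) in KO and -1.08 ± 0.08 (adjusted p = 2.64e-07) in WT macrophages, and so did the disulfide reductase gene Dnajc10, with -0.75 ± 0.07 (adjusted p = 3.37e-06) in KO and -0.82 ± 0.07 (adjusted p = 1.39e-06) in WT. Txndc5, a disulfide isomerase gene, had -0.47 ± 0.07 (adjusted p = 0.000102) in KO and -0.50 ± 0.07 (adjusted p = 5.76e-05) in WT, and Wfs1, of an ER membrane protein, had -0.58 ± 0.07 (adjusted p = 1.15e-05) and -0.46 ± 0.07 (adjusted p = 6.97e-05) in that order. The medians of these lists were 0.36, 0.43 and -0.10 in KO and 0.53, 0.49 and -0.07 in WT macrophages, in the order integrated stress response, heat shock, ER.

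Knockout and wild-type macrophages were then compared after LPS. Of the 37 genes, 0 were higher and 14 lower in KO LPS than in WT LPS macrophages, where 20.0% of all genes tested were higher and 19.5% lower. The 14 were Atf4, Atf6, Calr, Ddit3, Dnajb1, Eif2ak3, Hsf1, Hsp90b1, Hspa5, Hspd1, Pdia3, Pdia4, Sesn2 and Xbp1, and their differences, KO minus WT, ran from -0.35 for Hsf1 to -0.15 for Atf4. The median over the 37 was -0.12, beside -0.01 over all genes tested. No array of KO LPS shared a slide with an array of WT LPS, so genotype and slide cannot be told apart by these arrays alone. With slide as a term, estimated from the KO PBS arrays of both slides and so from KO PBS replicate 3, 0 of the 37 were called, 3 had an unadjusted p under 0.05, and 3.24% of all genes were lower. Markers of other cell types moved with genotype too. The sum of the B cell markers was 53.1 to 54.0 on KO LPS arrays and 65.4 to 78.3 on WT LPS arrays, and that of the mast cell markers 74.9 to 76.9 on KO LPS arrays and 86.1 to 106 on WT LPS arrays. In KO against WT LPS macrophages, 3 of 6 B cell, 3 of 6 T cell and 2 of 6 mast cell markers were lower, while 1 T cell, 3 of 8 macrophage and 2 of 5 neutrophil markers were higher. The part of these cells in the differences was not tested.

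All 3 transcription factors and 2 of the 3 sensors, Atf6 and Eif2ak3, were among the lower genes, and Ern1 had -0.02 ± 0.10 (adjusted p = 0.912). The calls of Atf4 and Xbp1 were weak. The other probe of Atf4 gave -0.04 and those of Xbp1 -0.20 and -0.04, and with the mean over a gene's probes neither was called. The fit with that mean called 15 of the 37 lower, where 18.2% of all genes tested were lower. It added Hsp90aa1, Hspa8 and Hsph1, whose brightest probes gave -0.22, -0.29 and -0.31 and were not called. Their other kept probes gave -0.50 for Hsp90aa1, -0.33, -0.42 and -0.22 for Hspa8, and -0.43 for Hsph1. Of 12 alternatives, 1 called Atf4 and 2 called Xbp1. Hsf1 had levels of 1.73, 1.73 and 1.64 on KO LPS arrays, against 2.00, 2.03 and 2.12 on WT LPS arrays. The difference was -0.35 ± 0.08 (adjusted p = 0.00443), and -0.07 ± 0.09 (adjusted p = 0.684) with slide as a term. Atf6 differed by -0.33 ± 0.06 (adjusted p = 0.00264), and by -0.09 ± 0.07 (adjusted p = 0.506) with slide as a term. Ddit3 differed by -0.29 ± 0.07 (adjusted p = 0.00655), and by -0.13 ± 0.11 (adjusted p = 0.532) with slide as a term. For all 3 genes the KO LPS arrays lay below the WT LPS arrays without overlap. That also held for genes not called: Psat1, with -0.06 ± 0.04 (adjusted p = 0.318), Ddit4, Hsph1, Hsp90ab1 and Hspe1.

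Among the chaperones, Hspa5 differed by -0.27 ± 0.06 (adjusted p = 0.00447), Pdia4 by -0.29 ± 0.08 (adjusted p = 0.0119), Pdia3 by -0.22 ± 0.05 (adjusted p = 0.007) and Hsp90b1 by -0.20 ± 0.05 (adjusted p = 0.00678), and with slide as a term by -0.18, -0.12, -0.25 and -0.04. Dnajb1 differed by -0.31 ± 0.06 (adjusted p = 0.0029), Hspd1 by -0.22 ± 0.05 (adjusted p = 0.00948) and Sesn2 by -0.27 ± 0.07 (adjusted p = 0.00858), and with slide as a term by -0.16, -0.07 and -0.17. These 7 and Hsf1, Atf6 and Ddit3 made 10 genes called in each of the 6 fits that left out 1 LPS array. The calls of Atf4 (-0.15 ± 0.05) and Eif2ak3 (-0.17 ± 0.06) ended in all 6 of these fits, that of Calr (-0.21 ± 0.06) without KO LPS replicate 2, and that of Xbp1 (-0.22 ± 0.08) in all but the one without WT LPS replicate 3. With slide as a term the value of Xbp1 turned to 0.02.

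The genes with the largest rises after LPS were not called between genotypes after it. Ddit4 differed by -0.16 ± 0.06 (adjusted p = 0.0614), Ppp1r15a by 0.15 ± 0.06 (adjusted p = 0.0827), Chac1 by -0.03 ± 0.07 (adjusted p = 0.76) and Herpud1 by 0.15 ± 0.06 (adjusted p = 0.0722). Their 95% intervals were -0.30 to -0.02, 0.01 to 0.28, -0.17 to 0.12 and 0.02 to 0.29. The other kept probe of Herpud1 gave -0.14, so its direction between genotypes is not settled. Hspa1a and Hspa1b stood higher on average in KO LPS macrophages, by 0.40 ± 0.25 (adjusted p = 0.219) and 0.37 ± 0.27 (adjusted p = 0.283), with overlapping arrays. Of the further genes of the pathways, 2 were higher and 10 lower of 30 of ER folding and degradation, 2 and 4 of 29 of heat shock, and 3 and 8 of 29 of the integrated stress response. Over all genes tested, 20.0% were higher and 19.5% lower.

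**Figure D4:**
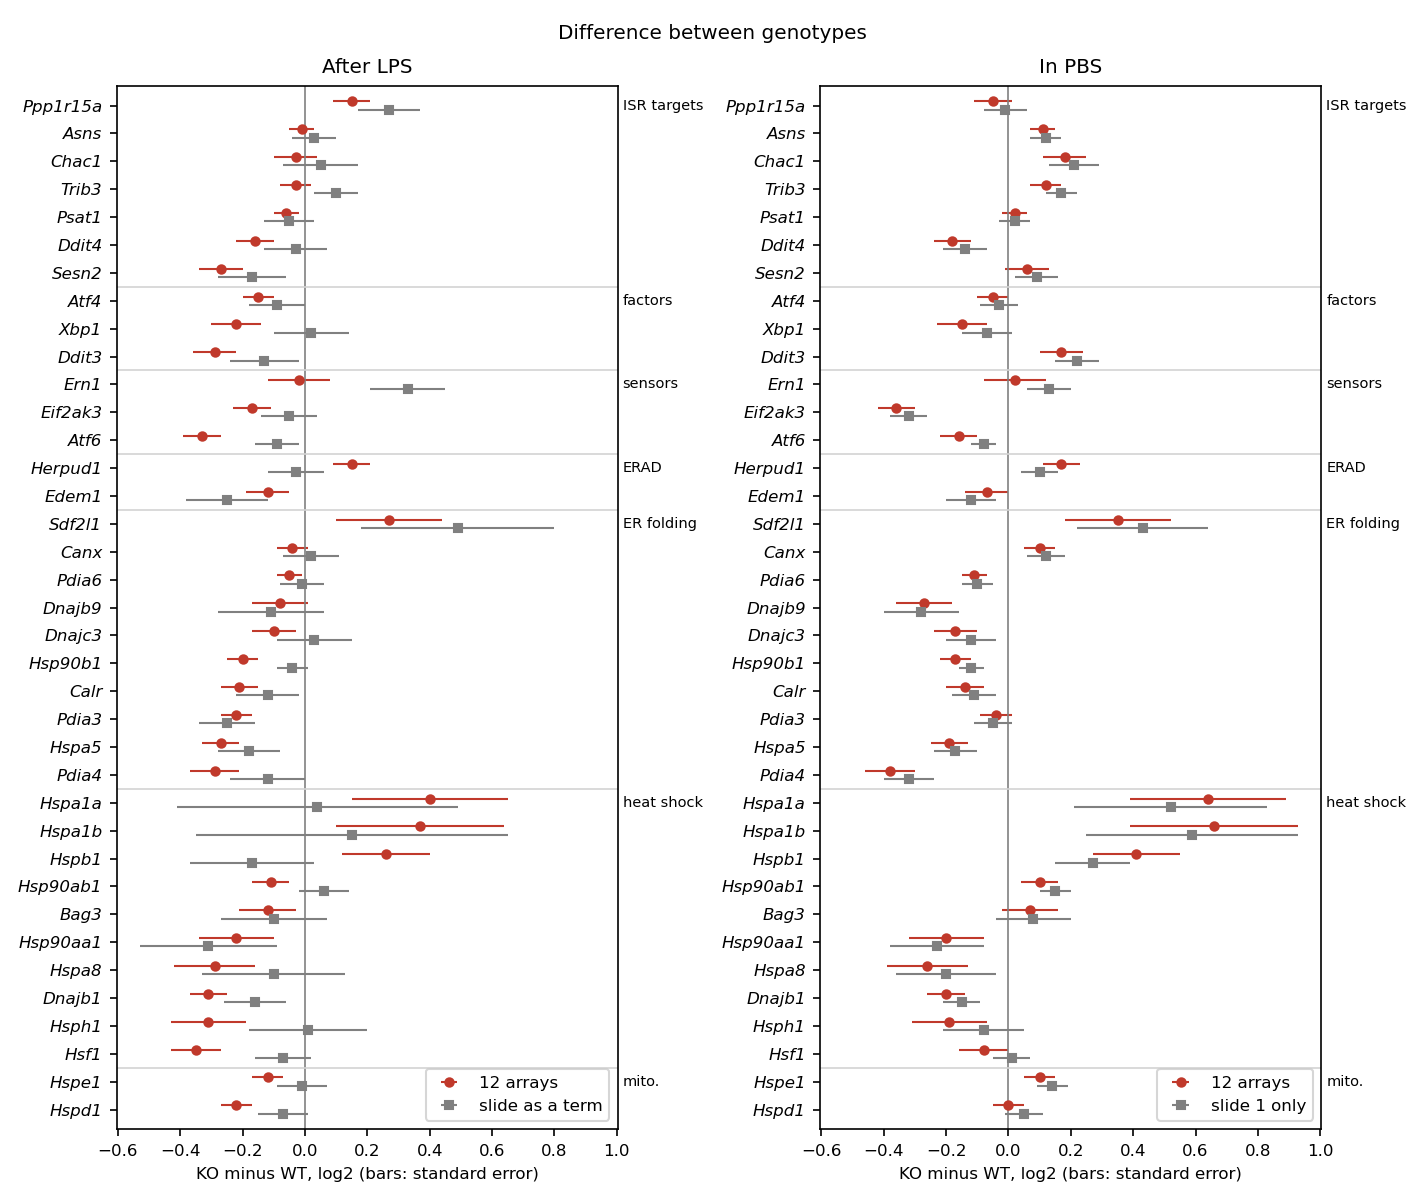
Difference between genotypes (x axis, KO minus WT, log2, bars are the standard error) for each of the 37 genes, after LPS in the left panel and in PBS in the right panel. Each gene has its value from the fit over all 12 arrays and a second value, which has slide as a term after LPS and comes from slide 1 alone in PBS. After LPS the values with slide as a term lie nearer to 0 for Hsf1, Atf6, Ddit3 and Hsp90b1, and in PBS Eif2ak3 and Pdia4 keep values of -0.32 and -0.32 on slide 1 alone.

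In PBS, without LPS, 5 of the 37 genes were lower and 0 higher in KO than in WT macrophages, where 8.06% of all genes tested were higher and 6.05% lower. They were the sensor Eif2ak3, the ER chaperones Hspa5, Hsp90b1 and Pdia4, and Dnajb1. Eif2ak3 had levels of 1.30, 1.31 and 1.19 on KO PBS arrays, against 1.60, 1.53 and 1.74 on WT PBS arrays, which did not overlap. The difference was -0.36 ± 0.06 (adjusted p = 0.00261). Slide 1 held 2 KO PBS and all 3 WT PBS arrays, and a fit of slide 1 alone gave -0.32 ± 0.06 (adjusted p = 0.0262). Eif2ak3 was the 1 gene of the 37 called lower there, where 2.97% of all genes were lower.

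Pdia4 had 0.56, 0.53 and 0.37 on KO PBS arrays, against 0.95, 0.80 and 0.85 on WT PBS arrays, and differed by -0.38 ± 0.08 (adjusted p = 0.00841), or -0.32 ± 0.08 (adjusted p = 0.0566) on slide 1. Hspa5 differed by -0.19 ± 0.06 (adjusted p = 0.0442), Hsp90b1 by -0.17 ± 0.05 (adjusted p = 0.0344) and Dnajb1 by -0.20 ± 0.06 (adjusted p = 0.0497), and on slide 1 by -0.17 ± 0.07 (adjusted p = 0.18), -0.12 ± 0.04 (adjusted p = 0.107) and -0.15 ± 0.06 (adjusted p = 0.172). The call of Hspa5 ended in each fit that left out 1 PBS array except the one without WT PBS replicate 3, that of Hsp90b1 without WT PBS replicate 1 or 2, and that of Dnajb1 without WT PBS replicate 1 or 2 or KO PBS replicate 1 or 3. The count of called genes was 2 without WT PBS replicate 1 (6.9% of all genes called), 2 without WT PBS replicate 2 (7.85%) and 3 without KO PBS replicate 1 (9.65%). It was 5 without KO PBS replicate 2 (10.2%), where Hspb1 was higher and the others lower. Without KO PBS replicate 3 it was 5 (15.2%), where Ddit3 and Trib3 were higher and the others lower. Without WT PBS replicate 3 it was 10 (19.4%), where Sdf2l1 was higher and the others lower. The share of all genes called, 14.1% with all arrays, thus moved as well. With slide as a term, Ddit3 and Trib3 were called higher and Eif2ak3, Hsp90b1 and Pdia4 lower, where 9.48% of all genes were higher and 5.68% lower. The sum of the B cell markers was 106 to 112 on KO PBS arrays and 123 to 159 on WT PBS arrays, that of the T cell markers 17.5 to 18.9 and 19.3 to 24.9, and that of the mast cell markers 58.9 to 67.4 and 67.6 to 90.1, in the same order. Their part in these differences was not tested.

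The inducible Hsp70 genes had KO PBS means above the WT PBS means and did not pass the test. Hspa1b had 0.22, -0.10 and 0.28 on KO PBS arrays, against -0.27, -0.16 and -1.17 on WT PBS arrays, and Hspa1a 1.52, 1.29 and 1.77 against 1.08, 1.26 and 0.31, in the same order. All KO PBS arrays lay above all WT PBS arrays. The differences were 0.66 ± 0.27 (adjusted p = 0.119) for Hspa1b and 0.64 ± 0.25 (adjusted p = 0.104) for Hspa1a, with intervals of 0.08 to 1.25 and 0.10 to 1.19. They rest in part on WT PBS replicate 3, the lowest array, without which they were 0.35 (adjusted p = 0.291) and 0.36 (adjusted p = 0.252). Hspb1 had 0.41 ± 0.14 (adjusted p = 0.063), and 0.27 ± 0.12 (adjusted p = 0.209) on slide 1.

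The change after LPS in KO less that in WT macrophages was tested as an interaction. It called 1 of the 37 genes, Ddit3, with -0.46 ± 0.10 (adjusted p = 0.0179), where 0.926% of all genes tested were higher and 3.39% lower. The value is the difference between 0.04 in KO and 0.50 in WT macrophages, and it combines a higher mean in KO PBS, 0.17 above WT PBS, with a lower mean in KO LPS, -0.29 relative to WT LPS. With slide as a term it was -0.35 ± 0.10 (adjusted p = 0.132). Over 18 alternatives its adjusted p ran from 0.00322 to 0.132 and the value from -0.53 to -0.35. The call ended without WT PBS replicate 1, KO PBS replicate 1, KO PBS replicate 2, KO LPS replicate 1 or KO LPS replicate 2, left out 1 at a time.

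The other 36 values of the interaction ran from -0.32 for Sesn2 to 0.20 for Ppp1r15a, with a median over the 37 of -0.10 beside -0.01 over all genes tested. That median was -0.06 with slide as a term and -0.03 under quantile normalization. Sesn2 had -0.32 ± 0.09 (adjusted p = 0.0813). Without KO PBS replicate 3, the lone KO PBS array of slide 2, 8 genes were called lower: Atf6, Ddit3, Hsf1, Hsp90ab1, Hspd1, Hspe1, Sesn2 and Trib3. That fit called 21.1% of all genes, 11.5% lower and 9.52% higher, against 4.31% with all arrays. Of 29 further genes of the integrated stress response 1 was called, Eif2ak2, with -1.08 ± 0.11 (adjusted p = 0.000146). It was higher in KO than in WT macrophages in PBS, with 0.54 ± 0.08 (adjusted p = 0.00136), and lower after LPS, with -0.54 ± 0.08 (adjusted p = 0.000638).

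The heat shock genes also differed between arrays of 1 group. WT replicate 3 was the lowest of its 3 arrays for 9 of the 10 genes of heat shock factor and cytosolic chaperones after LPS and for 8 in PBS, 8 of them in both. For Hspa1a it stood at -0.71 relative to the mean of replicates 1 and 2 after LPS and at -0.86 in PBS. For Hspa1b these gaps were -0.76 and -0.95, for Hspa8 -0.30 and -0.47, and for Hsp90aa1 -0.33 and -0.43. KO replicate 3 stood above the others for Hspa1a, by 0.32 after LPS and 0.36 in PBS relative to their mean. Yet it was the lowest KO array for 6 of these 10 genes after LPS and for 6 in PBS. In KO macrophages a low replicate 3 was not particular to heat shock genes. Of the 7 targets of the integrated stress response, KO replicate 3 was lowest for 7 after LPS and 6 in PBS, and WT replicate 3 for 1 and 5. WT replicate 3 was lowest in both WT groups for 1 of these 7. The same held for 3 of the 10 ER chaperones and folding enzymes and 2 of the 3 transcription factors. The largest standard deviation of any of the 37 genes in any group was 0.55.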

How the data were processed

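Per the labels' protocols, total RNA was taken with TRIzol, and cyanine-3 labelled cRNA was made from 0.1 µg of it with a low-input kit. Per the submitters' processing notes, the arrays were read with Agilent Feature Extraction 11.5.1.1. The deposited values are linear intensities, per the file headers the processed signal of each spot, background-corrected by the scanner software and not scaled between arrays.

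From these, log2 intensity less the array's own 75th percentile was computed, the percentile taken over all spots that are no controls. Control spots were left out, and spots of 1 probe were averaged. Spots marked as outliers were left out of that average unless all spots of the probe were marked. Of 56605 probes, 32994 were named through their RefSeq accession with the RefSeq gene table of GRCm38.p6, giving 22911 symbols. The files' own coordinates are on mm9 and are not printed. Probes that had no group in which every array was well above background were dropped, and the brightest kept probe stood for a gene. Agreement between probes was looked at for the 15 of the 37 genes with several kept probes: among called genes, the other probes had the same sign in 18 of 18 cases for LPS in KO, 18 of 18 for LPS in WT, 7 of 7 for KO against WT after LPS and 2 of 2 in PBS, whereas among genes not called between genotypes after LPS the probes disagreed in sign for Hspe1 (-0.12, 0.47 and -0.03), Herpud1 (0.15 and -0.14) and Asns (-0.01 and 0.19). No spot was saturated, and 3 arrays a group limit the precision.

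Tests used limma 3.58.1 in R 4.3.3, with 1 mean per group over all 12 arrays, a trended prior and Benjamini-Hochberg adjustment over 13283 genes, and a call is an adjusted p under 0.05. The procedure was tested on simulated data. Errors after ± are standard errors of that fit. The share of all genes whose arrays do not overlap was not computed, so a lack of overlap describes the arrays and is no test. The members and the lists of other genes and markers were chosen with earlier results of these data known. Values on all 12 arrays are given for up to 4 genes of each role with the largest change in any comparison of 2 groups and for genes called in the interaction, and up to 3 other pathway genes per list and LPS comparison are named, those called with the smallest p.

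Slides were read from the file headers. The labels do not say that replicate numbers pair the samples. They were taken to do so where all 3 same-numbered pairs correlate over 0.1 in their deviations from the group means. This held for WT LPS and WT PBS (0.105, 0.371 and 0.481) and not for KO LPS and KO PBS (0.0405, 0.113 and 0.0807) or between genotypes, where the highest was 0.0167. Alternatives were normexp background correction (offset 50), quantile normalization, no filter on dim probes, the mean over a gene's probes, slide as a term, each slide alone, the replicate number as a block, and each array left out in turn. Normexp was run on the median spot signal with the median local background; the mean spot signal planned for it was not used here.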

Additional observations from a re-analysis of the deposited data

Results flagged for a closer look

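The response of Ddit3 (CHOP) to LPS was called different between genotypes over all 12 arrays, by a test of the difference itself. Ddit3 was the 1 gene called of the 37, where 0.926% of all genes tested were higher and 3.39% lower. The call held in 7 of 12 fits that each left out 1 array, and ended with slide as a term. The change in KO less that in WT macrophages was -0.46 ± 0.10 (adjusted p = 0.0179) in limma's interaction test over 12 arrays, with a change of 0.04 in KO and 0.50 in WT macrophages. All 3 WT LPS arrays stood above all 3 WT PBS arrays, while the KO groups overlapped. The KO LPS arrays and KO PBS replicate 3 share a slide that holds no WT array, and with slide as a term the value was -0.35 ± 0.10 (adjusted p = 0.132).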

How the results depend on the processing

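Counts of the 37 genes called after LPS kept within 1.5 times the counts given, in KO (28) and in WT (29) macrophages, under every alternative. With 1 array left out they ran from 25 to 29 in KO and from 26 to 28 in WT, from 10 to 16 for KO against WT after LPS (14), from 2 to 10 for KO against WT in PBS (5) and from 0 to 8 for the interaction (1). With slide as a block limma called 0 for KO against WT after LPS and 0 for the interaction, where 3 and 6 genes had an unadjusted p under 0.05. KO against WT in PBS called 2 genes with no filter on dim probes, which raises the number tested to 22911, and 1 on slide 1 alone, with fewer arrays. With the replicate number as a block it called 0 in PBS, where 13 genes had an unadjusted p under 0.05 and Eif2ak3 and Pdia4 had adjusted p = 0.131 and 0.0942, and 2 for the interaction, while the counts were 33 for LPS in KO, 31 for LPS in WT and 18 for KO against WT after LPS. In WT macrophages, whose numbers were taken to pair the samples, the block added the calls of Dnajb9 and Ern1 and changed no other. WT LPS replicate 1, however, correlated better with a WT PBS array of another number, so this pairing is not settled. In KO macrophages every sample correlated best with its own number among the 3, a hint from the data and not from the design. Normexp correction gave 1 gene higher and 3 lower in PBS. Among values called in the 12-array fit or under the alternative, the direction turned for Pdia6 and Xbp1 after LPS in WT macrophages under quantile normalization, to -0.27 (adjusted p = 0.000332) and -0.05 (adjusted p = 0.528), and for Xbp1 between genotypes after LPS with slide as a block, to 0.02 (adjusted p = 0.954). The cause of these moves was not tested. Of 2553 values of single genes under an alternative, 2373 kept their side of the threshold without a turn of a called value, 111 lost the call and 66 gained one. Of these 2373, 101 were called neither over 12 arrays nor under the alternative and changed sign: 44 were values of the interaction, 23 of KO against WT after LPS, 14 of LPS in WT, 13 of KO against WT in PBS and 7 of LPS in KO. Without the filter the median of all genes was -0.14 for LPS in KO, 0.11 for LPS in WT and -0.13 between genotypes after LPS.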

Other observations

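Neutrophil markers summed to 7.91 to 10.0 on KO LPS arrays, against 5.82 to 9.06 on KO PBS arrays, and to 4.08 to 10.3 on WT LPS arrays, against 3.13 to 4.13 on WT PBS arrays, relative to the 75th percentile of each array's signal. Of the 5 tested, 2 were higher and 0 lower in KO than in WT macrophages, in PBS as after LPS.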
